A study of Nicrophorus vespilloides with 24 samples.

Results

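Locus_C857706 and Locus_C909762 are 2 of the 11403 loci listed in the head transcriptome of the burying beetle *Nicrophorus vespilloides*. Locus_C857706 is described by its blast hit as similar to lysosomal acid lipase of the beetle *Tribolium castaneum*, and Locus_C909762 by a hit to a hypothetical protein of the bark beetle *Dendroctonus ponderosae*. They were chosen from these data because control females held them in abundance and control males held almost none, so the difference between the sexes in controls is a description here and was not tested. A locus is an assembled contig or a group of overlapping contigs, and no other locus carried either blast hit. A gene may be split over several loci, so numbers of contigs are not numbers of genes. The 24 libraries form 12 groups of 2, made up of females and males under uniparental and biparental conditions as controls, while caring and after caring (post-caring). The controls were mated beetles given no carcass, and caring beetles were taken from the carcass near their larvae. Post-caring beetles, paired earlier so that ages matched, were taken after desertion. By the study's methods, every beetle was then kept alone for 24 h before its head was taken. Uniparental parents had had their mate removed and biparental parents stayed with it, and each social condition had its own control and post-caring groups. All beetles were 21 days old after eclosion and came from a single locality. A library pooled the tissue of 10 individuals, which the labels call brains and the methods describe as heads with fat body and connective tissue around the brain. Differences between single beetles therefore cannot be seen, and fewer cells of a type cannot be told apart from less RNA per cell.

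Acid lipases release fatty acids from triglycerides and cholesteryl esters, and the lysosomal enzyme does so for lipids taken up by the cell. In *Drosophila melanogaster* the related lipase magro acts in the gut on dietary lipid and sterol esters. Insect fat body stores lipid and, in females, makes vitellogenin, the yolk precursor that travels in the haemolymph to the oocytes. A burying beetle parent prepares a carcass, feeds begging larvae by regurgitation and then leaves, and females lay before the larvae arrive.

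Library totals lay between 14647691 and 23906173 counts, so counting noise was small wherever females were concerned. The 12 female libraries held 6619 to 78469 counts of Locus_C857706 and 96518 to 895904 counts of Locus_C909762. In the 12 male libraries the counts were 39 to 1343 and 56 to 15709. Levels below are CPM, the counts of a library brought to a common library size with edgeR's TMM factors. They are compared between libraries and not between loci, since contig lengths were not used. Comparisons come from 1 fit over all 24 libraries, and a locus is called where its adjusted p-value in a comparison is under 0.05.

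Uniparental male control replicate 1 stood apart from the other 11 male libraries at both loci. It held 68.2 CPM of Locus_C857706 and 798 CPM of Locus_C909762, against at most 10.9 and 80.3 CPM in any other male library. These levels equalled 2.84% and 3.60% of the uniparental female control mean, and 9 of the 10 vitellogenin contigs lay between 2.09% and 3.63% of theirs in the same library. Among the 9648 loci tested, 11 had more than 1 CPM in this library and exceeded 5 times their highest other male value there, both loci and the same 9 vitellogenin contigs. How the transcripts came to be in this library was not tested. Results that rest on it are given with and without it, a choice made after its values were seen. It also enters the spread that all groups share in the fit, so leaving it out moves the adjusted p-values of comparisons that do not contain it.

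**Figure D1:**
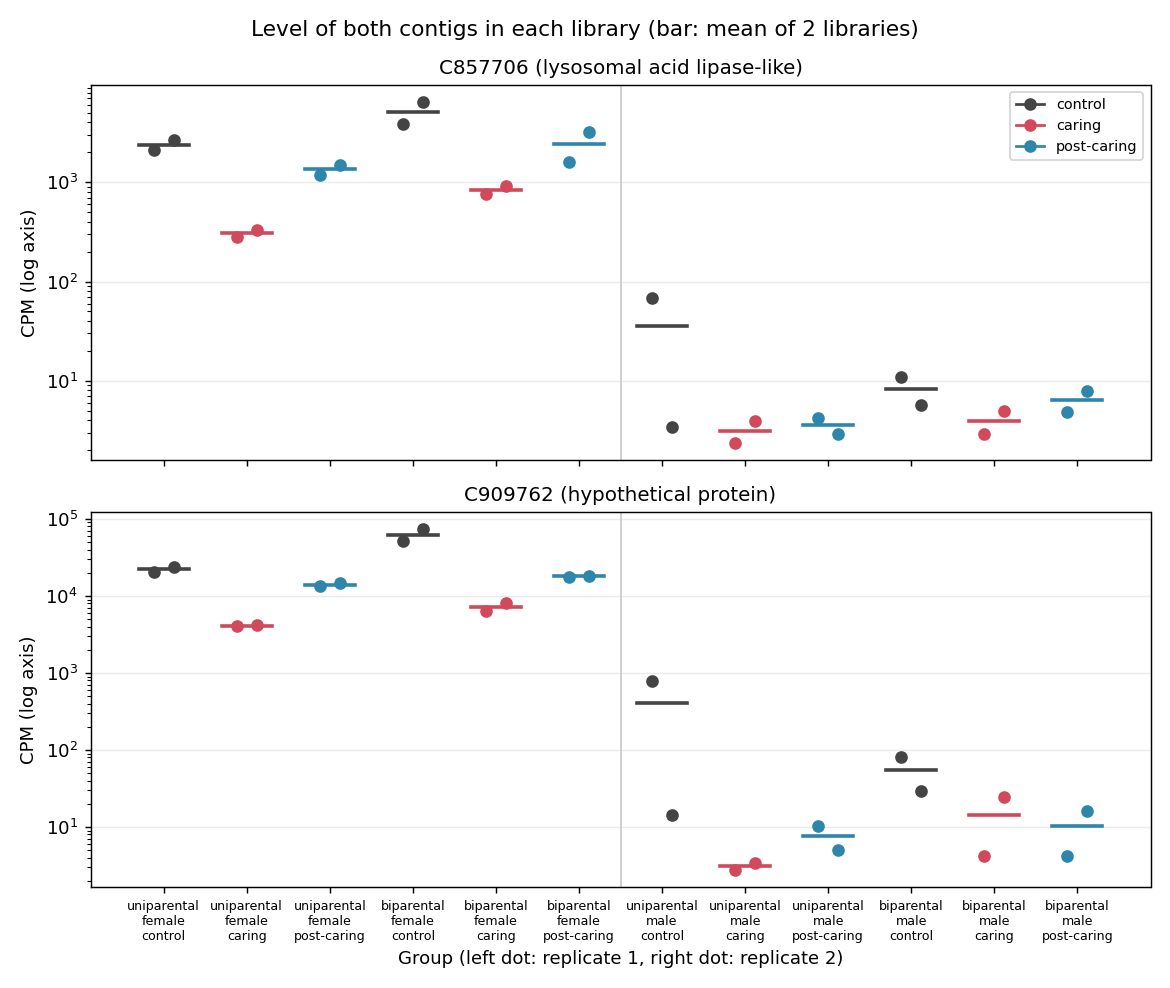
CPM (log axis) of Locus_C857706 (top) and Locus_C909762 (bottom) in each library of the 12 groups, females left of the vertical line and males right of it, with a dot per library and a bar at the group mean of 2 libraries. Caring females sit below control and post-caring females of their social condition, and uniparental male control replicate 1 lies above the other male libraries, at 68.2 and 798 CPM.

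Females carried Locus_C857706 at every stage, with the lowest levels during caring. Uniparental females had 2133 and 2665 CPM as controls, 279 and 332 CPM while caring, and 1188 and 1503 CPM after caring. Biparental females had 3880 and 6436 CPM as controls, 766 and 909 CPM while caring, and 1611 and 3195 CPM after caring. Within each social condition the libraries of the 3 states did not overlap, and their order was control, then post-caring, then caring. Groups of 2 libraries often separate without a difference. The share of all loci that do so was not counted, here and below.

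Locus_C909762 gave the same order of states in females. Its level in uniparental females was 20351 and 24000 CPM in controls, 4073 and 4179 CPM during caring, and 13506 and 14558 CPM after caring. Its level in biparental females was 51474 and 73485 CPM in controls, 6342 and 8046 CPM during caring, and 17861 and 18273 CPM after caring. The 2 libraries of a female group differed by 0.03 to 0.51 on the log2 scale at this locus, and by 0.25 to 0.99 at Locus_C857706.

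Males held little of either transcript in every state. For Locus_C857706, uniparental males had 68.2 and 3.46 CPM as controls, 2.37 and 3.90 CPM while caring, and 4.24 and 2.94 CPM after caring, and biparental males had 10.9 and 5.77 CPM, 2.94 and 4.98 CPM, and 4.91 and 7.96 CPM in the same 3 states. For Locus_C909762, uniparental males had 798 and 14.4 CPM as controls, 2.75 and 3.43 CPM while caring, and 10.2 and 5.10 CPM after caring, and biparental males had 80.3 and 29.3 CPM, 4.23 and 24.3 CPM, and 4.17 and 16.2 CPM. Male libraries of neighbouring groups mostly overlapped, and no male library reached the lowest female library of either locus.

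Ordered by mean level, Locus_C857706 ran from biparental control females at 5158 CPM through biparental post-caring females (2403 CPM), uniparental control females (2399 CPM), uniparental post-caring females (1346 CPM) and biparental caring females (838 CPM) to uniparental caring females at 305 CPM. Of these neighbours only biparental post-caring and uniparental control females overlapped. Locus_C909762 ran from biparental control females at 62480 CPM through uniparental control (22176 CPM), biparental post-caring (18067 CPM), uniparental post-caring (14032 CPM) and biparental caring females (7194 CPM) to uniparental caring females at 4126 CPM, with no overlap between neighbours. In males the order began with uniparental and biparental controls at both loci, and the first of these places rested on uniparental male control replicate 1.

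In the controls, which chose the loci, the mean of females stood above that of males 620-fold for Locus_C857706 and 1140-fold for Locus_C909762 under biparental conditions. Under uniparental conditions, where replicate 1 of the males stood apart, the same ratios were 66.9 and 54.6.

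Caring and post-caring beetles share no library with that choice, and there the sexes were tested. Both loci were higher in females in all 4 comparisons, by the quasi-likelihood test of edgeR, adjusted over the 9648 loci tested by Benjamini and Hochberg's method. Caring females exceeded caring males at Locus_C857706 by 6.60 ± 0.93 on the log2 scale (SE) when uniparental and by 7.72 ± 0.98 when biparental, with adjusted p-values of 0.000162 and 0.000318 in edgeR. After caring the differences were 8.54 ± 1.0 under both social conditions, with adjusted p-values of 0.000126 and 0.000127 in edgeR. The 4 comparisons called 18.5% of all loci in uniparental caring, 11.3% in biparental caring, 5.64% in uniparental post-caring and 10.1% in biparental post-caring beetles, and the shares called higher in females were 8.14%, 5.17%, 1.62% and 3.79%.

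At Locus_C909762 the difference between the sexes was 10.38 ± 1.53 in uniparental and 8.97 ± 1.44 in biparental caring beetles (SE, log2 scale), and 10.83 ± 1.54 and 10.79 ± 1.54 in uniparental and biparental post-caring beetles. The largest of the 4 adjusted p-values was 0.00104 in edgeR's quasi-likelihood test. Averaged over the caring and post-caring libraries, the male level was 0.350% of the female level for Locus_C857706 and 0.0810% for Locus_C909762. The female libraries differed from the male ones in a marker list as well, since the 34 muscle contigs summed to 21741 to 76708 CPM in females and 78276 to 183930 CPM in males, without overlap. The part of this in the sex difference was not tested.

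Few other loci were higher in females to this degree, by a margin set after the values were seen. In the 16 caring and post-caring libraries, the lowest female value exceeded the highest male value more than 5-fold at 11 of the 9648 loci, counting only loci with a mean above 1 CPM in those female libraries, namely both loci and 9 vitellogenin contigs. The margin was 35.1-fold for Locus_C857706, 168-fold for Locus_C909762 and between 102-fold and 204-fold for the vitellogenin contigs. Several of these contigs share a description. Whether they are pieces of the same gene was not examined, so they are not read as 9 genes. The exception among the 10 vitellogenin contigs was Locus_C852695, described as Vitellogenin-6, whose lowest female value was 0.705 of its highest male value.

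Caring females were compared with control females next, to ask how the transcripts differ between beetles taken from their larvae and mated beetles with no brood. The controls are the libraries in which the loci had been chosen, for abundance in females. That choice favours a fall from control, so the p-values of caring against control females are a description. Locus_C857706 fell in caring females, to 12.7% of the control mean when uniparental and 16.2% when biparental. The fitted change was -2.97 ± 0.76 in uniparental females (SE, log2 scale, adjusted p = 0.0177) and -2.62 ± 0.75 in biparental females (adjusted p = 0.0414), both from the same test in edgeR. Either call ended when single libraries were left out, any of the 4 in biparental females (log2 changes from -2.96 to -2.19) and caring replicate 1, caring replicate 2 or control replicate 2 in uniparental females (from -3.10 to -2.78). These comparisons called 11.2% and 7.93% of all loci, and 7.55% and 2.92% as lower. The adjusted p-values were 0.000291 and 0.00104 in edgeR with uniparental male control replicate 1 left out of the fit.

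Locus_C909762 stood at 18.6% of the control mean in uniparental and 11.5% in biparental caring females, and neither change passed the threshold. The fitted values were -2.43 ± 1.07 (SE, log2 scale, 95% interval -4.68 to -0.17, adjusted p = 0.173 in edgeR) and -3.12 ± 1.10 (interval -5.44 to -0.80, adjusted p = 0.0904 in edgeR). All 4 caring libraries were below all 4 control libraries, though the share of all loci separated in this way was not counted. Both passed once uniparental male control replicate 1 was left out, with changes of -2.42 and -3.14 and adjusted p-values of 0.0237 and 0.0108 in edgeR.

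In males the size of the change rested on a single library. Control males, too, had entered the choice of the loci. Caring uniparental males differed from their controls by -3.52 ± 0.83 at Locus_C857706 and by -7.04 ± 1.34 at Locus_C909762 (SE, log2 scale), with adjusted p-values of 0.0221 and 0.00729 in edgeR, where 5% of all loci were called and 2.82% as lower. Without uniparental male control replicate 1 the values were -0.14 and -2.22, with adjusted p-values of 0.957 and 0.226 in edgeR. Leaving out either caring library also ended both calls, with changes of -3.19 and -3.90 at Locus_C857706 and -6.88 and -7.18 at Locus_C909762 without replicates 1 and 2 (adjusted p from 0.0839 to 0.172 in edgeR). Caring biparental males had changes of -1.06 ± 0.84 and -1.94 ± 1.08, with adjusted p-values of 0.778 and 0.675 in edgeR, in a comparison that called 0.0207% of all loci.

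**Figure D2:**
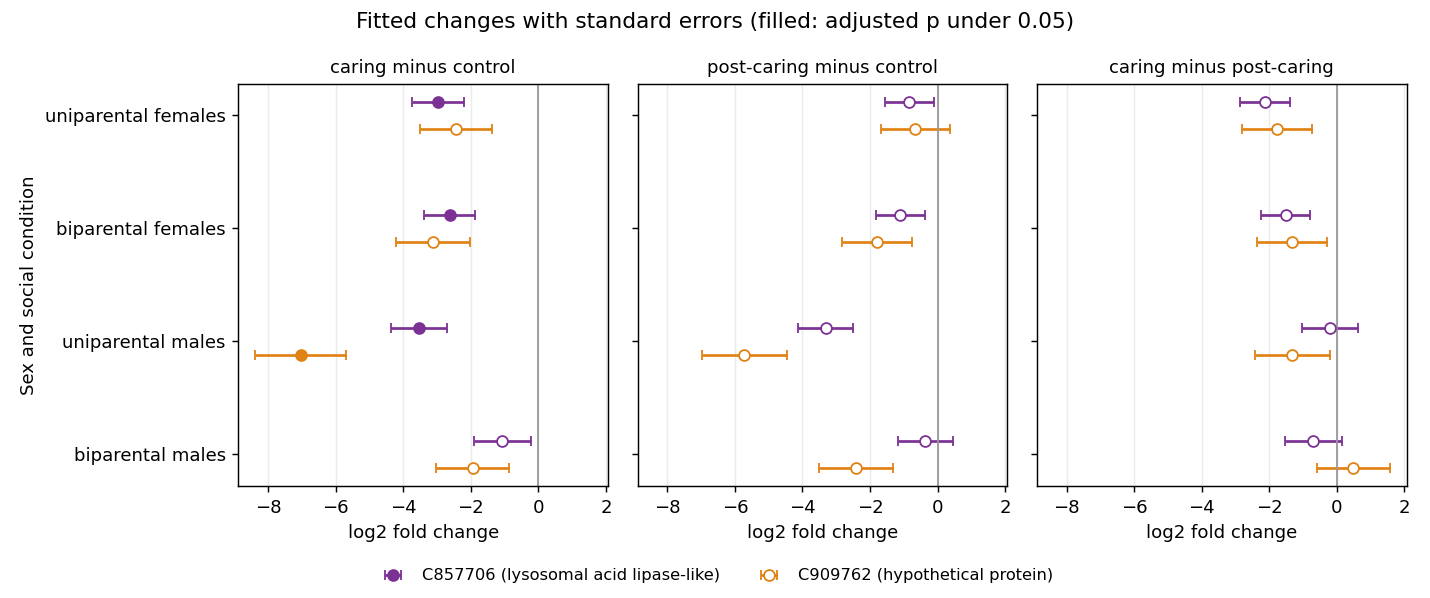
Fitted log2 fold changes of Locus_C857706 (purple) and Locus_C909762 (orange) for caring minus control, post-caring minus control and caring minus post-caring in each sex and social condition, with bars of 1 standard error and filled points where the adjusted p was under 0.05. In females the values run from -3.12 to -2.43 in the left panel and from -1.79 to -0.66 in the middle one, and the low values of uniparental males rest on control replicate 1.

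After caring, both transcripts lay between the caring and the control level in females. Locus_C857706 stood at 56.1% of the control mean in uniparental and 46.6% in biparental post-caring females, and Locus_C909762 at 63.3% and 28.9%. Across both sexes, 0 of the 8 changes from control passed edgeR's quasi-likelihood test and 3 were under 0.05 before adjustment. The Wald test of DESeq2 and the likelihood ratio test of edgeR called 2 each, both in uniparental males. Of all loci, uniparental females had 0.0207% called, biparental females 0%, uniparental males 0% and biparental males 0.0104%. For Locus_C857706 the fitted change was -0.83 (95% interval -2.34 to 0.67) in uniparental and -1.10 (-2.62 to 0.41) in biparental females. For Locus_C909762 it was -0.66 (-2.81 to 1.49) and -1.79 (-3.99 to 0.41) in uniparental and biparental females. All 4 intervals include a return to the control level. They are set against the libraries in which the loci had been chosen, so they do not decide whether the levels returned. In uniparental males the fitted values were -3.31 and -5.72 at Locus_C857706 and Locus_C909762. They became 0.04 and -0.92 without control replicate 1, and -4.24 and -6.70 without control replicate 2, when both passed (adjusted p = 0.000204 and 0.000734 in edgeR). In biparental males they were -0.37 and -2.42.

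Caring and post-caring libraries were set against each other directly, a comparison that shares no library with the choice of the loci. The fitted level of Locus_C857706 was 4.41-fold lower in caring than in post-caring uniparental females, at -2.14 ± 0.74 on the log2 scale (SE, adjusted p = 0.0904 in edgeR), and 2.87-fold lower in biparental females, at -1.52 ± 0.72 (adjusted p = 0.327 in edgeR). Locus_C909762 differed by -1.77 ± 1.04 and -1.33 ± 1.03 in uniparental and biparental females, with adjusted p-values of 0.391 and 0.627 in edgeR. With males included, 0 of 8 values passed edgeR's quasi-likelihood test and 1 was under 0.05 before adjustment, while DESeq2 called 0 and the likelihood ratio test 1. Of all loci, uniparental females had 8.34% called, biparental females 2.94%, uniparental males 3.63% and biparental males 0%.

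That negative result depended on the library that stood apart. Without uniparental male control replicate 1, which is in none of these groups, the difference at Locus_C857706 passed in uniparental females (-2.16, adjusted p = 0.00202 in edgeR) and in biparental females (-1.50, adjusted p = 0.0400 in edgeR). At Locus_C909762 it did not, with -1.79 (adjusted p = 0.102 in edgeR) and -1.31 (adjusted p = 0.330 in edgeR).

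Uniparental and biparental females were compared within each state. Both transcripts had the lower mean in uniparental females, and the libraries of the social conditions overlapped at neither locus in any of the 3 states. The share of all loci without overlap was not counted, so this is not read as a trait of both loci. Of all loci, 37.3%, 39.2% and 40.5% were called in controls, during caring and after caring. The control libraries had also chosen the loci, so the difference in controls is a description, with and without uniparental male control replicate 1. At Locus_C857706 the differences were -1.10 ± 0.72 in controls, -1.46 ± 0.72 during caring and -0.84 ± 0.71 after caring (SE, log2 scale), with adjusted p-values of 0.242, 0.122 and 0.367 in edgeR. At Locus_C909762 they were -1.49 ± 1.03, -0.80 ± 1.02 and -0.36 ± 1.01, with adjusted p-values of 0.274, 0.565 and 0.799 in edgeR. Without uniparental male control replicate 1, Locus_C857706 passed in controls (-1.13, adjusted p = 0.0235 in edgeR) and during caring (-1.46, adjusted p = 0.00586 in edgeR). The share of loci with counts that are not whole was 40.4% to 48.9% in uniparental and 33.3% to 38.2% in biparental libraries, and its part in these differences was not tested.

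The control males are also among the libraries that chose the loci, so their difference is given as a description. Both loci were higher in them under uniparental conditions, by 2.11 ± 0.78 at Locus_C857706 and 2.89 ± 1.09 at Locus_C909762 (SE, log2 scale). The comparison called 41.9% of all loci, and 22.7% as higher. Both directions turned when uniparental male control replicate 1 was left out, to -1.26 and -1.92. Without biparental control replicates 1 and 2 in turn, they were 2.63 and 1.72 for Locus_C857706 and 3.78 and 2.33 for Locus_C909762. In caring males the differences were -0.34 ± 0.86 and -2.21 ± 1.14 (adjusted p = 0.771 and 0.122 in edgeR, 46.8% of all loci called), and in post-caring males -0.83 ± 0.83 and -0.41 ± 1.08 (adjusted p = 0.436 and 0.784 in edgeR, 43.6% called). At Locus_C909762 in caring males the value passed without uniparental male control replicate 1, at -2.21 (adjusted p = 0.0170 in edgeR).

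Whether the caring change itself differed between the social conditions was tested as an interaction. It contains the control libraries, in which the loci had been chosen. In females the uniparental minus the biparental change was -0.35 ± 1.0 at Locus_C857706 (95% interval -2.47 to 1.77) and 0.69 ± 1.43 at Locus_C909762 (-2.33 to 3.72), with adjusted p-values of 0.915 and 0.871 in edgeR. The interaction called 1.61% of all loci in females and 0% in males. The male values were -2.45 and -5.10, with adjusted p-values of 0.856 and 0.766 in edgeR, and became 0.91 and -0.29 without uniparental male control replicate 1. Of these 4 interactions 0 passed in edgeR's quasi-likelihood test and 2 were under 0.05 before adjustment, while DESeq2 called 1 and the likelihood ratio test 0.

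The loci most like Locus_C857706 and Locus_C909762 across libraries were vitellogenin contigs. Over all 24 libraries the 5 loci with the highest Pearson r of log2(CPM + 1) were vitellogenin contigs for each of them, with r from 0.992 to 0.996 for Locus_C857706 (Locus_C828738, Locus_C869378, Locus_C882026, Locus_C909574 and Locus_C911252) and from 0.998 to 0.9997 for Locus_C909762 (Locus_C912104, Locus_C912896, Locus_C885328, Locus_C911252 and Locus_C896214). Over the 12 female libraries alone the 5 highest were again vitellogenin contigs, with r from 0.978 to 0.993 and from 0.987 to 0.997. Locus_C857706 and Locus_C909762 correlated with each other at r = 0.989 over 24 libraries, rank 10 in either list, with a Spearman rho of 0.976. Within the sexes r was 0.965 over 12 female and 0.933 over 12 male libraries, and 0.818 over the 11 males without uniparental control replicate 1. Correlated loci share their libraries, their scaling and the gap between the sexes, so these values describe likeness only. The 5 contigs of a list are not read as 5 separate genes.

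**Figure D3:**
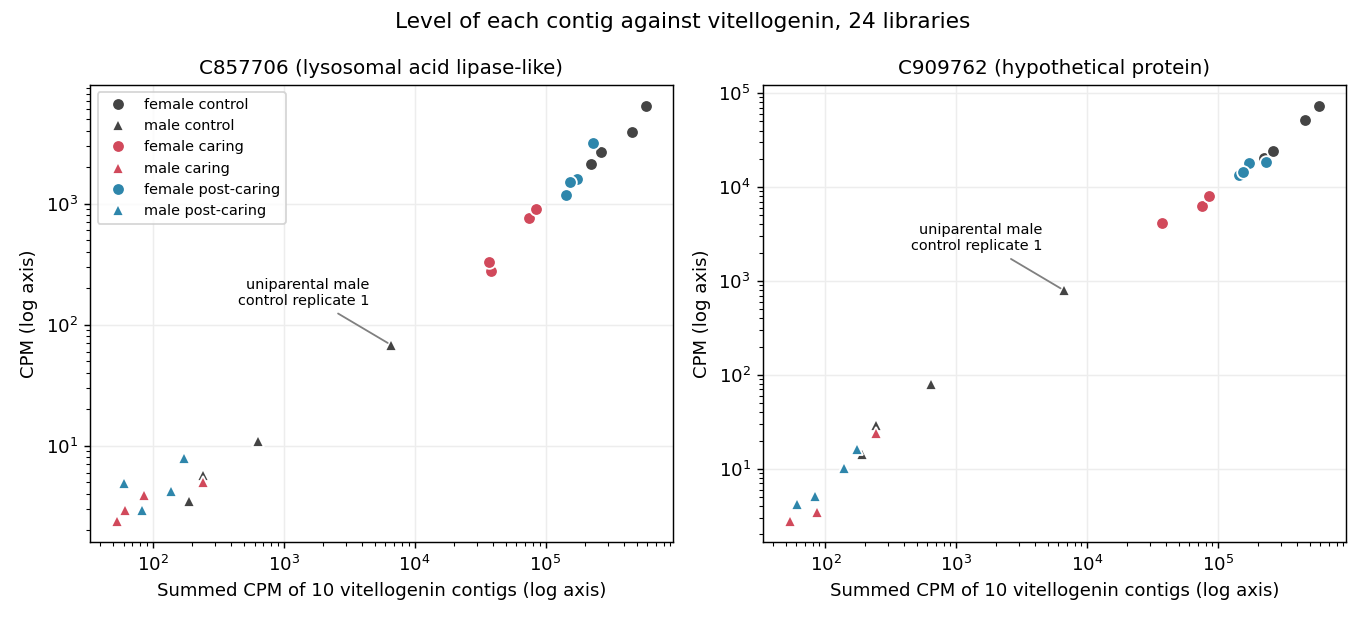
CPM of Locus_C857706 (left) and Locus_C909762 (right) against the summed CPM of the 10 vitellogenin contigs in 24 libraries, both axes logarithmic, circles for females, triangles for males and colours for the 3 states. Female libraries lie between 37297 and 586940 CPM of vitellogenin, uniparental male control replicate 1 lies at 6590, and the other males at or below 637.

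Set against vitellogenin, the level in females varied little while vitellogenin itself changed more than 10-fold. Vitellogenin made up 21.9% to 39.4% of the counts in control females, 5.44% to 9.17% in caring females and 17.3% to 21.8% in post-caring females. Per 1000 CPM of vitellogenin, Locus_C857706 had 8.44 to 10.97 CPM in control, 7.34 to 10.7 CPM in caring and 8.27 to 13.8 CPM in post-caring females, and these ranges overlapped. Locus_C909762 had 91.2 to 125 CPM in control, 84.3 to 112 CPM in caring and 78.7 to 104 CPM in post-caring females, which overlapped as well. Both loci and vitellogenin together reached 44.8% of the counts of a control female library.

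The vitellogenin contigs had changes of similar size to both loci in caring females, and few of them passed the test. In caring minus control, Locus_C828738 was called lower in biparental females, 1 of 10, with a median change of -2.97, where 2.92% of all loci were called lower. In uniparental females it was called lower again and Locus_C852695 higher, with a median of -2.74, where 7.55% of all loci were called lower and 3.61% higher. These were named after their values were seen. Medians over all loci were -0.02 and -0.01. In uniparental males 9 of 10 were called lower, with a median of -6.71, in the comparison that holds control replicate 1 and called 2.82% of all loci lower. The list comes from the caring gene set, which was chosen on these samples, and is not independent evidence of a direction. Several of its vitellogenin contigs share a description, so 9 of 10 is not a count of separate genes.

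The summed level of the other fat body and haemolymph markers (arylphorin, hexamerin and apolipophorin contigs) overlapped between the sexes. Without vitellogenin this list summed to 839 to 3231 CPM in females and 420 to 6908 CPM in males. Single contigs of it, named after their values were seen, did differ. Locus_C882058, an apolipophorin-III contig, was called higher in females among uniparental caring beetles (861 against 430 CPM, adjusted p = 0.0149 in edgeR). There 8.14% of all loci were called higher. The contig was not called in biparental caring beetles or in post-caring beetles of either social condition. Locus_3250, an arylphorin contig, was called lower in females, with 0.734 against 53.2 CPM in uniparental and 4.76 against 158 CPM in biparental caring beetles (adjusted p = 0.0178 and 0.0380 in edgeR). These comparisons called 18.5% and 11.3% of all loci in either direction. After caring Locus_3250 was not called between the sexes. Neither hexamerin contig, Locus_56290 or Locus_78404, was called between the sexes in caring or post-caring beetles. In females the summed list without vitellogenin was 1220 to 3219 CPM in controls, 839 to 2187 CPM during caring and 1599 to 3231 CPM after caring. These ranges overlapped between the states. Locus_3250, whose product stores amino acids in the haemolymph of insects, had 0.760 and 0.709 CPM in caring against 104 and 1641 CPM in control uniparental females, and 7.18 and 2.33 CPM in caring against 901 and 154 CPM in control biparental females. It was called lower in both, with log2 changes of -10.20 ± 1.90 and -6.80 ± 1.61 (SE, adjusted p = 0.00248 and 0.0169 in edgeR). The hexamerin contig Locus_78404 was called higher in caring uniparental females (adjusted p = 0.0251 in edgeR), with 0.211 and 3.10 CPM against 0 in both control libraries. The part of these markers in the changes of both loci was not tested.

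The eye and nerve list held a rhodopsin-like contig and a contig similar to a synaptic vesicle protein. Only 1 of these 2 passed the filter on low counts, so its values do not stand for both eye and nerve. The contig that passed had 451 to 5269 CPM in females and 315 to 5558 CPM in males. The olfactory list (19 contigs) summed to 4598 to 20893 CPM in females and 3307 to 13031 CPM in males. Both ranges overlapped between the sexes. The olfactory list was picked by words anywhere in a description. Some of its contigs have a haemolymph protein or an unknown protein as first hit, so not all 19 are olfactory markers by name. In uniparental females this eye and nerve contig had 4402 and 5269 CPM in caring and 710 and 1577 CPM in control libraries, without overlap. In biparental females it had 830 and 1611 CPM in caring and 1871 and 526 CPM in control libraries. Neither change was called (log2 2.08 and 0.03). Of the 19 olfactory contigs, 11 were called higher and 1 lower in caring minus control uniparental females, with a median of 2.04, and 7 higher and 1 lower in biparental females, with a median of 1.12, while 3.61% and 5.01% of all loci were called higher. The olfactory sum was 5617 and 4746 CPM in caring and 5664 and 4968 CPM in control uniparental females, and 8134 and 4711 CPM in caring and 20893 and 8470 CPM in control biparental females. The muscle sum was 21741 to 24367 CPM in caring and 52586 to 76708 CPM in control uniparental females, where 33 of its 34 contigs were called lower with a median of -1.42, against 7.55% of all loci. In biparental females 0 of the 34 were called lower and 1 higher, with a median of -0.04. Many of the 34 share the description similar to BMKETTIN, and whether they are pieces of the same transcript was not examined. The number called is therefore not a number of muscle genes. The part of the eye and nerve, olfactory and muscle markers in the caring changes was not tested.

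The number of Locus_C909762 counts per Locus_C857706 count had a higher median in females, with ranges that overlapped, and the difference was not tested. It lay between 5.72 and 14.6 in the 12 female libraries, with a median of 10.4. Uniparental male control replicate 1 had 11.7, inside the female range, and the other 11 male libraries had 0.851 to 7.39 with a median of 2.03. The highest of these, biparental control replicate 1 at 7.39, was above the lowest female library. Among those, the 3 control libraries had 4.16 to 7.39 and the 8 caring and post-caring libraries 0.851 to 4.88, so that male control and later libraries overlapped. Contig lengths enter this ratio equally in every library.

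**Figure D4:**
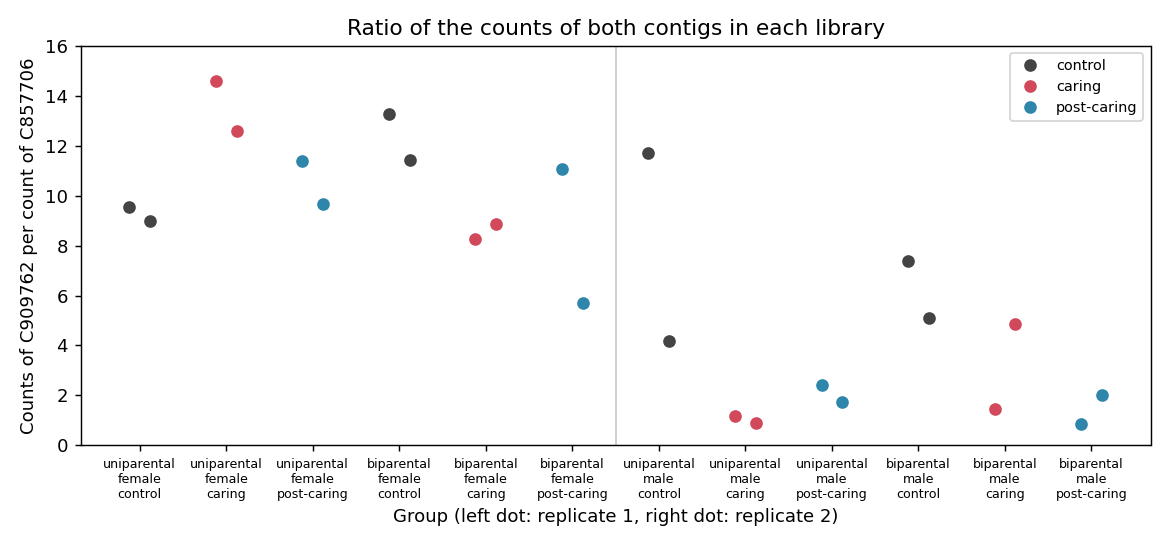
Counts of Locus_C909762 per count of Locus_C857706 in each library of the 12 groups, females left of the vertical line and males right of it, on a linear axis from 0. Female libraries lie between 5.72 and 14.6, and of the males only control libraries reach above 4.88, with uniparental replicate 1 at 11.7.

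Other lipase contigs of the caring gene set did not share the female limitation. The set holds 7 contigs described as lipases, Locus_C857706 included, of which 6 passed the filter on low counts. Over the 4 comparisons of females with males in caring and post-caring beetles, the other 5 had log2 differences between -3.14 and 1.55. The only calls were lower in females, at Locus_10994 in biparental caring beetles (0.13 against 1.14 CPM, adjusted p = 0.0180 in edgeR) and at Locus_13851, similar to lipase member K, in uniparental post-caring beetles (1.32 against 3.95 CPM, adjusted p = 0.0429 in edgeR). These 2 comparisons called 11.3% and 5.64% of all loci in either direction, and the levels of both contigs were low. Locus_C876658, a pancreatic lipase-related contig, had 13.1 CPM in caring females against 27.1 CPM in caring males when uniparental, and 27.3 against 27.1 CPM when biparental, and neither difference passed.

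In caring minus control, 3 of the 6 lipase contigs were called lower in uniparental females (Locus_C857706, Locus_13851 and Locus_10994) and 2 higher (Locus_C876658 and Locus_54728), with a median of -1.75, while 7.55% of all loci were called lower and 3.61% higher. In biparental females Locus_C857706 and Locus_10994 were called lower, with a median of -1.39 over the 6, while 2.92% of all loci were called lower. In uniparental males Locus_C857706, Locus_13851 and Locus_28787 were called lower and Locus_C876658 higher, with Locus_28787 similar to lipase 3 and the first of these resting on control replicate 1, while 2.82% of all loci were called lower and 2.18% higher. Locus_10994, similar to lysosomal acid lipase, fell in caring females to 0.181 CPM against 1.07 CPM in uniparental controls and to 0.13 CPM against 1.97 CPM in biparental controls, with log2 changes of -2.51 and -3.95 (adjusted p = 0.0205 and 0.00444 in edgeR). Locus_54728, with the same description, rose in caring uniparental females, with 2.03 CPM against 0.324 CPM in controls and a log2 change of 2.57 (adjusted p = 0.0107 in edgeR). Locus_C876658 rose in the same females, with 13.1 CPM against 2.77 CPM and a log2 change of 2.25 (adjusted p = 0.0152 in edgeR). These contigs were picked by the study on the same control and caring libraries, so their directions are not independent evidence.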

How the data were processed

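Messenger RNA from pooled heads of 24 libraries was sequenced by the authors as paired-end reads, trimmed with Trimmomatic 0.30 and assembled without a genome, and contigs with an arthropod blast hit were kept. The authors mapped reads with Bowtie2 and deposited RSEM's expected counts for every locus and library, which are not normalized or pooled. Values are not whole at 33.3% to 48.9% of the loci of a library. Groups follow the sample titles.

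Here expected counts were rounded and scaled by TMM in edgeR 4.0.16 (R 4.3.3). The filter filterByExpr, with a minimum count of 10, left 9648 of 11403 loci, both loci among them. A single model with 12 group means was fitted, so that groups share the spread, and 24 comparisons were tested by the quasi-likelihood test with Benjamini-Hochberg adjustment within each and a threshold of 0.05. Scripts were tested on simulated data. The SE is the log2 fold change divided by the root of F. Fold changes use a prior count of 0.125. The study states a likelihood ratio test, run as an alternative beside DESeq2 1.42.0 and those listed at the end. Replicates were separate pools of beetles. Precision is limited by 2 libraries a group, not by depth.

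The 2 loci and all lists were chosen with earlier results of these data known. Named genes were both loci, the 5 loci most like each over 24 and over 12 female libraries, and contigs described as lipases but not phospholipases. Lists (lipase, fat body and haemolymph, muscle, eye and nerve, olfactory organs) were taken by words in the descriptions of the study's table of 866 caring genes, whose fold changes and p-values were not used. Contig sequences were not used here.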

Additional observations from a re-analysis of the deposited data

How the results depend on the processing

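Of 680 alternative values for the 48 tested results of both loci, 619 kept their direction and side of the threshold, 21 fell out of it, 29 came into it and 11 reversed. The 48 include comparisons that hold control libraries, which chose the loci. Values that passed there are a description only, among them the 2 in uniparental minus biparental control males. All 112 alternative values of the 8 differences between the sexes in caring and post-caring beetles passed, from 6.26 to 12.1 (log2). RLE factors, no filter on low counts, a prior count of 2, counts that were not rounded, and totals without vitellogenin and both loci (added after seeing the data) changed no call among the 48. Replicate numbers did not pair these libraries in a steady way (r of deviations from -0.50 to 0.55 over 66 pairs of groups, 25 above 0.1). At both loci, though, replicate 2 was the higher library in all 6 female groups. A replicate block changed no call, with -2.62 at Locus_C857706 in caring minus control biparental females (adjusted p = 0.0431 in edgeR). DESeq2's Wald test brought 6 values past the threshold. These were -3.32 (Locus_C857706) and -5.73 (Locus_C909762) in post-caring minus control uniparental males and, at Locus_C909762, -3.11 and -2.43 in caring minus control biparental and uniparental females, -5.09 in the male interaction and -2.25 in uniparental minus biparental caring males. The likelihood ratio test brought in -2.14 (Locus_C857706) in caring minus post-caring uniparental females, -3.12 (Locus_C909762) in caring minus control biparental females, and -3.32 and -5.73 in post-caring minus control uniparental males. With the libraries of a comparison alone, -3.52 and -7.03 in caring minus control uniparental males and 2.12 and 2.90 in uniparental minus biparental control males no longer passed. Under the same setting -2.15 and -1.78 in caring minus post-caring uniparental females, -3.09 and -2.38 (Locus_C909762) in caring minus control biparental and uniparental females, -1.44 and -0.79 in uniparental minus biparental caring females, -1.09 and -1.49 in the same controls, and -2.22 (Locus_C909762) in caring males passed. The cause was not tested.

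With each library left out in turn, a fit that takes a lone library to vary like the other groups, caring minus control at Locus_C857706 ranged from -2.96 to -2.19 in biparental females, where leaving out any of the 4 libraries ended the call (adjusted p from 0.0704 to 0.203 in edgeR), and from -3.14 to -2.78 in uniparental females, where caring replicate 1, caring replicate 2 or control replicate 2 did. In uniparental males it ranged from -4.43 to -0.14 at Locus_C857706 and from -8.00 to -2.22 at Locus_C909762, and either caring library or control replicate 1 ended both calls. At Locus_C909762 it ranged from -3.37 to -2.82 in biparental and from -2.56 to -2.28 in uniparental females. Caring minus post-caring at Locus_C857706 ranged from -1.90 to -0.95 in biparental females, from -2.30 to -1.99 in uniparental females and from -0.59 to 0.12 in uniparental males, where 0.12 and 0.09 were reached without caring and without post-caring replicate 1. At Locus_C909762 in biparental males it ranged from -1.26 (without caring replicate 2) to 1.78, and was -0.17 without post-caring replicate 1. Post-caring minus control ranged at Locus_C857706 from -0.76 to 0.16 in biparental males (highest without control replicate 1), and from -4.24 to 0.044 (without control replicate 1) in uniparental males, and at Locus_C909762 from -6.70 to -0.92 there, and both passed without control replicate 2. Uniparental minus biparental ranged at Locus_C857706 from -1.59 to -1.33 in caring females, from -1.44 to -0.70 in control females, from -0.75 to 0.084 in caring males (highest without biparental replicate 2) and from -1.26 to 3.03 in control males. At Locus_C909762 it ranged from -2.97 to -0.46 in caring males, from -1.92 to 3.86 in control males and from -1.09 to 0.88 in post-caring males (highest without biparental replicate 2). Without uniparental replicate 1 the male control values turned to -1.26 and -1.92. The male interaction ranged from -3.37 to 0.91 at Locus_C857706 and from -6.07 to -0.29 at Locus_C909762, where -6.07, without uniparental control replicate 2, passed. Without uniparental male control replicate 1, 17 of 48 results passed, against 14 with it, and 10 passed both ways.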

Other observations

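Within every one of the 12 groups, the library with more Locus_C857706 was also the one with more Locus_C909762. It was replicate 2 in all 6 female groups and either replicate in male groups, which was not tested. The difference between the 2 libraries of a group ran from 0.25 to 0.99 (log2) in females at Locus_C857706 and from 0.03 to 0.51 at Locus_C909762. In males it ran from 0.53 to 4.30 and from 0.32 to 5.79, the highest values being those of the uniparental control males.

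Among the 11 male libraries other than uniparental male control replicate 1, a set looked at after the data were seen, the 5 loci most like Locus_C909762 were again vitellogenin contigs, with Pearson r of log2(CPM + 1) from 0.981 to 0.996. None of the 5 loci most like Locus_C857706 there was a vitellogenin contig, and their r lay between 0.916 and 0.921. Per 1000 CPM of vitellogenin, these males had 17.1 to 80.6 CPM of Locus_C857706, above the 7.34 to 13.8 CPM of all 12 female libraries. They had 39.8 to 126 CPM of Locus_C909762, against 78.7 to 125 CPM in females. The vitellogenin sum includes Locus_C852695, which was not limited to females. It reached 31.9 CPM in these males, whose sums began at 53.3 CPM, and its part in these ratios was not tested. Over the other 9 vitellogenin contigs, the mean male level in caring and post-caring libraries was 0.0797% of the female level. The same share was 0.350% for Locus_C857706 and 0.0810% for Locus_C909762. Uniparental male control replicate 1 had 10.3 and 121 CPM, both inside the female range. All male values of Locus_C857706 but that of this library rest on 39 to 140 counts.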
